A study of Homo sapiens with 12 samples.

Results

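The regions described here are PAR-CLIP clusters just after the stop codon. PAR-CLIP maps where a protein touches RNA: cells take up 4-thiouridine, ultraviolet light crosslinks it to bound protein, and the RNA that precipitates with the protein is sequenced and grouped into clusters. A cluster was taken when its midpoint lay, on its own strand, in the 3' UTR of the canonical coding transcript of a gene (GENCODE release 44, hg38), in no annotated coding sequence, at most 200 nt of spliced sequence after the stop codon and over 200 nt before the transcript end. The rule found 3537 clusters in 979 genes among the 96139 clusters on chromosomes 1 to 22, X and Y in 12 libraries. They were part of 32731 clusters in canonical 3' UTRs, of which 27295 lay in the interior, over 200 nt from both the stop codon and the transcript end. At the edge of the rule, 184 clusters lay in the last 10 nt inside it and 177 in the first 10 nt outside.

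The stretch after the stop codon is where a ribosome leaves the mRNA, and it marks the border between sequence swept by ribosomes and sequence that keeps its bound proteins. Methylation of adenosine at position N6 (m6A) is known to concentrate near stop codons, at sites whose core is often GGAC. IGF2BP1, IGF2BP2 and IGF2BP3 form a family of RNA-binding proteins that affect mRNA stability and have been described as m6A readers. METTL1 and WDR4 form a methyltransferase that writes a subset of the internal m7G of mRNA.

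All 12 libraries came from wildtype HepG2, a human liver cancer cell line, and no library was an input or mock control. Every group shared the same treatment, with 4-thiouridine for 14 h, 365 nm light at 0.15 J per square cm applied repeatedly, and RNase T1. The groups differed in the protein precipitated: IGF2BP1, IGF2BP2, METTL1 and WDR4 had 2 libraries each, and IGF2BP3 had 2 libraries plus 2 that carry the label bio2. The files held from 4581 to 15701 clusters per library, with no read counts, so the depth of a cluster was unknown. The liver origin showed in the transcripts contacted, since 8 of 10 hepatocyte marker genes had an exonic cluster in some library and APOB, SERPINA1 and FGB in all 12, while APOA1 and TTR had none. The bio2 libraries stood apart: in the interior of 3' UTRs, 1.28% and 1.51% of their clusters had a central 20 nt that occurs over 20 times in the genome, against 9.60% to 25.3% in the other 10. Results that rest on them are given with and without them.

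The 12 genes with stop-proximal clusters in the most libraries had them in all 12. Their most widely found site is shown as 30 nt of hg38 around the median cluster midpoint, to let the sequence be read beside the counts. That site was found in all 12 libraries, except that the COPZ1 site was found in 10 and in neither bio2 library. The bio2 libraries had another COPZ1 site, at 25 nt. The distance is that of the midpoint from the stop codon. Capitals mark CATA, CATC or CATT, the DNA letters of the known IGF2BP core motif CAUA, CAUC or CAUU, and would also mark GGAC or the PUM element UGUANAUA in DNA letters, which these windows lack.
RAB7A at 77 nt (chr3:128813485-128813514, plus strand): acaattcccctctcctcttccaaacaaaac
GLUL at 54 nt (chr1:182384337-182384366, minus strand): ttCATCccactccaactcttccccctctcc
COPZ1 at 166 nt (chr12:54350675-54350704, plus strand): cctcccctacacccttcctattctttttca
APEX1 at 54.5 nt (chr14:20457548-20457577, plus strand): cctcaactacCATTccttctttaaacactc
BCL2L1 at 38 nt (chr20:31665897-31665926, minus strand): accctcccacccccttctctgctccaccac
FGB at 83 nt (chr4:154570719-154570748, plus strand): tctttCATACATTatattcctctaaaactc
GIGYF2 at 81 nt (chr2:232856927-232856956, plus strand): aacacttactcacCATTtactctttatcac
ITM2B at 143 nt (chr13:48261353-48261382, plus strand): CATCtCATTaattcaattaaaacCATTacc
KHDRBS1 at 143 nt (chr1:32042753-32042782, plus strand): ttcttctccccaccttattcCATTcttaac
PEBP1 at 174 nt (chr12:118144963-118144992, plus strand): gcctttataattttactcactcactctgat
SERPINA1 at 24 nt (chr14:94378411-94378440, minus strand): cgctcctcaacccctcccctcCATCcctgg
SPRED2 at 64 nt (chr2:65313423-65313452, minus strand): tctcttaCATActctCATCttctcccccgc
Of these 12 windows, 8 held the core motif. Over all stop-proximal clusters, 45.4% of the central 30 nt did, from 28.5% to 67.8% by library. The other windows were rich in C and T with few G, as in BCL2L1, RAB7A and COPZ1. RNase T1 cuts after G. G made up 9.76% of the bases inside stop-proximal clusters and 15.3% of the 61 nt around their midpoints.

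The next 5 genes are among the 8 that had stop-proximal clusters in all 8 IGF2BP libraries and in none of the 4 METTL1 and WDR4 libraries. Their sites are shown in the same way, as examples of stop-proximal contact seen with the readers alone.
AGAP1 at 139 nt (chr2:236124247-236124276, plus strand): ccgcccacccactctcaccccaaacaaaat
FAM200A at 3 nt (chr7:99546669-99546698, minus strand): ccCATCaCATTaaatacaaactttacaaaa
RAP1GDS1 at 32 nt (chr4:98442135-98442164, plus strand): gCATCATCcCATCtctaatttcccctctgt
RBP4 at 110 nt (chr10:93591951-93591980, minus strand): CATCttccctcagttccCATAaaaccttca
SLC38A2 at 17 nt (chr12:46361080-46361109, minus strand): tggcaccactcaaactcaaactcagtccat
The core motif was in the FAM200A, RAP1GDS1 and RBP4 windows and not in those of AGAP1 and SLC38A2. USP3, another of the 8 genes, also held it. The AGAP1 site shown was found in 7 of the 8 libraries, and IGF2BP2 replicate 1 had the gene's other site, at 94 nt. The FAM200A site was centred 3 nt after the stop codon and its 39 nt ran across it. Both motifs marked in its window lay before the 3' UTR, the second ending on the first base of the stop codon. Genes with stop-proximal clusters in METTL1 or WDR4 libraries and in no IGF2BP library reached 3 of 4 libraries at most. Of the 6 chosen, the 4 whose site was found in more than 1 of these libraries are shown.
CAMK2N1 at 179 nt (chr1:20483456-20483485, minus strand): agaggaggaggaggaggaggagaaggctct
DLX6 at 161 nt (chr7:97010194-97010223, plus strand): ctctctctctctctccctctcctttctttt
AAMP at 150 nt (chr2:218264369-218264398, minus strand): gacttgctcccctctccttttcttctcttt
HMGB1 at 59 nt (chr13:30461284-30461313, minus strand): taacccccctgtacacaactcactcctttt
An IGF2BP1 replicate 1 cluster also overlapped the CAMK2N1 site, with its midpoint outside the rule. The CAMK2N1 window was a purine repeat whose central 20 nt had a median of 505 exact copies in the genome, and the DLX6 window a CT repeat with 26. The HMGB1 centre had 11 copies and the AAMP centre 1. For FOXQ1 and GNAI2, METTL1 and WDR4 clusters lay at separate sites, each in 1 library, and the METTL1 site of FOXQ1 at 111 nt held CATC.

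The genes contacted in all 12 libraries covered unlike functions. The list held the metabolic enzyme GLUL, which makes glutamine, and the secreted liver proteins SERPINA1 (alpha-1 antitrypsin) and FGB (the fibrinogen beta chain). It also held the membrane traffic genes RAB7A, a GTPase of late endosomes, and COPZ1, a coatomer subunit. APEX1 encodes a DNA repair endonuclease, BCL2L1 an inhibitor of apoptosis, and KHDRBS1 and GIGYF2 regulators of RNA processing and translation. PEBP1 and SPRED2 encode inhibitors of the RAF and RAS pathway, and ITM2B a membrane protein. RAB7A had the most clusters, 22 in all, with 2 each in 10 libraries and 1 each in both METTL1 libraries. GLUL had 18 and COPZ1 15, of which IGF2BP1 replicate 2 gave 3. TNFRSF21, a death receptor, was the only other gene with members in all 12 libraries, which made 13.

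Several of these sites had nearly fixed borders. The FGB cluster was 40 nt wide with its midpoint 83 nt after the stop codon in every library. KHDRBS1 clusters had midpoints at 142 or 143 nt and widths from 38 to 40 nt. By comparison, SPRED2 clusters ran from 29 to 101 nt and those of SERPINA1 from 26 to 71 nt around the same place. APEX1 had a second site at 13.5 nt that appeared in both bio2 libraries and in no other. GLUL had a second site at 199 nt in 6 libraries, and RAB7A one at 163 nt in 10.

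**Figure D1:**
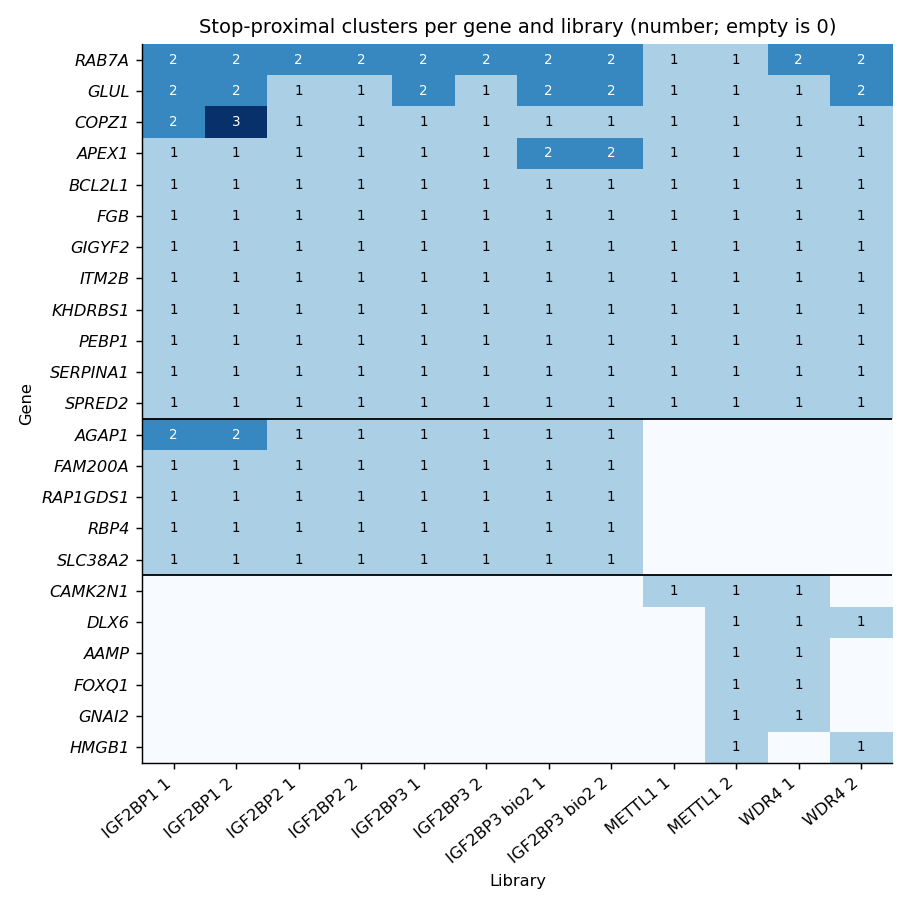
Number of stop-proximal clusters (cell value) for 23 genes (rows) in each of the 12 libraries (columns). The upper 12 genes had clusters in all 12 libraries, the next 5 in all 8 IGF2BP libraries alone, and the lowest 6 in 2 or 3 METTL1 and WDR4 libraries alone.

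Among the genes seen with the readers alone, RBP4, the plasma carrier of retinol, had 1 cluster per IGF2BP library, with midpoints from 95 to 110 nt after the stop codon. SLC38A2, a neutral amino acid transporter, had 1 per library at 13 to 20 nt. It also had 34 interior clusters from 11 libraries, METTL1 and WDR4 libraries among them. RAP1GDS1, a partner of small GTPases, had its cluster at 32 nt in all 8 libraries. AGAP1, a GTPase-activating protein for ARF, had 10 clusters at 2 sites. USP3, a histone deubiquitinase, had 1 cluster at 12 or 13 nt in each of the 8. In all, 8 of the 979 genes with members had this pattern of 8 against 0. No share over other 3' UTR clusters was taken for it, so it is not read as particular to the region. Under a looser rule for single sites, at least 4 of 8 IGF2BP and 0 of 4 other libraries, 12.9% of stop-proximal and 14.7% of interior sites qualified.

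Clusters that overlapped were merged across libraries into 10596 sites in 3' UTRs, of which 1129 were stop-proximal. A site was called reader-side when found in at least 4 of 8 IGF2BP and 0 of 4 METTL1 and WDR4 libraries. This held for 146 of the 1129 sites, or 12.9%, against 14.3% of all 3' UTR sites. A shared site needed at least 4 of 8 and at least 2 of 4, and 108 stop-proximal sites met this, or 9.57%, against 7.97% of all. A writer-side site needed at least 2 of 4 METTL1 and WDR4 and 0 of 8 IGF2BP libraries, and 20 did, or 1.77%, against 1.04%. The first 2 shares lay near the background, the writer-side share was higher on a small count, and all are given without a test. Without the bio2 libraries, and with at least 3 of 6 in place of 4 of 8, the share was 15.5% for reader-side sites against 18.9% of all, 11.6% for shared sites against 9.36%, and 2.08% for writer-side sites (21 of 1009) against 1.14%. Sites in a single library made up 38.2% of stop-proximal and 39.7% of interior sites. Sites in all 12 numbered 15 of 1129, or 1.33%, and 51 of 8812 in the interior, or 0.579%.

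By protein, IGF2BP1 had 1201 stop-proximal clusters in 653 genes, IGF2BP2 406 in 262, IGF2BP3 1156 in 491 over its 4 libraries, METTL1 365 in 284 and WDR4 409 in 304. Genes with such clusters in at least 2 libraries of one protein numbered 417, 124, 348, 69 and 85 in the same order, and 36 genes met this for all 5 proteins. Of the 979 genes, 355 (36.3%) had a cluster in 1 library only. IGF2BP1 had 60 genes with clusters in both its libraries and in no other, among them TLNRD1, SLC2A4RG and the transcription factor ARID3A. IGF2BP3 had 1, PHF3, found in all 4 of its libraries at 181 to 185 nt. METTL1 had 3 (NLE1, PAICS and SRP54), WDR4 had 4, with NKTR, NR5A1 and PSMD13 among them, and IGF2BP2 had 0. Another 45 genes were found in both bio2 libraries and in none of the other 10. No share over all 3' UTR genes was set beside these counts, and they concern the stop-proximal window alone. In the interior, ARID3A had 77 and PAICS 60 clusters, each from 12 libraries, and PHF3 had 25 from 11. SLC2A4RG, NLE1, NKTR and NR5A1 had 1 or 2, and TLNRD1, SRP54 and PSMD13 had 0. On the chromosomes used, the IGF2BP1 libraries held 13870 and 15051 clusters and those of IGF2BP2 4157 and 6960. Protein and number of clusters cannot be told apart in these counts.

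The share of 3' UTR clusters that lay just after the stop codon came to 9.45% and 10.0% for IGF2BP1, and to 8.64% and 8.67% for IGF2BP2. It was 11.1% and 10.2% for IGF2BP3, and 14.1% and 14.0% for IGF2BP3 bio2. METTL1 gave 12.8% and 12.7%, and WDR4 12.3% and 12.3%. The 4 METTL1 and WDR4 libraries thus lay above 6 IGF2BP libraries and below both bio2 libraries. Over all libraries the means of 10.8% ± 2.17 (SD, n = 8) and 12.5% ± 0.245 (SD, n = 4) did not differ in the exact two-sided permutation test (difference of -1.75 percentage points, p = 0.149, adjusted p = 0.239 over 8 comparisons). Without both bio2 libraries the difference was -2.84 points (exact permutation p = 0.00476, the smallest that this number of libraries allows). p-values here measure the spread between these libraries, which may be technical, since plates were seeded for each replicate by the methods but the labels do not say how far the cultures were separate.

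Restricting the same share to clusters whose central 20 nt occur once in the genome removed the overlap between the groups. It then ran from 10.3% to 13.2% in the 8 IGF2BP libraries and from 14.2% to 15.8% in the 4 others. The difference was -3.57 points (exact permutation p = 0.00202, the smallest possible). Both bio2 libraries, at 13.2% each, were still the highest of the readers. Taken over all clusters on these chromosomes, stop-proximal clusters were 4.37% ± 0.585 (SD, n = 8) of IGF2BP and 2.44% ± 0.204 (SD, n = 4) of METTL1 and WDR4 clusters (exact permutation p = 0.00202, adjusted p = 0.0162). This difference was shared by the 3' UTR as a whole. The lowest IGF2BP library, bio2 replicate 1, had 2197 of 6000 clusters in 3' UTRs at any position. The highest of METTL1 and WDR4, METTL1 replicate 1, had 1263 of 6076. With the 5 proteins as units, the exact permutation test cannot go below p = 0.1. Within the family, IGF2BP3 exceeded IGF2BP1 by 2.61 points and IGF2BP2 by 3.68 points over all 4 of its libraries, and without bio2 by 0.921 and 1.99 points. None of these pairs can pass an exact test at these numbers, the smallest p being 0.0667.

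**Figure D2:**
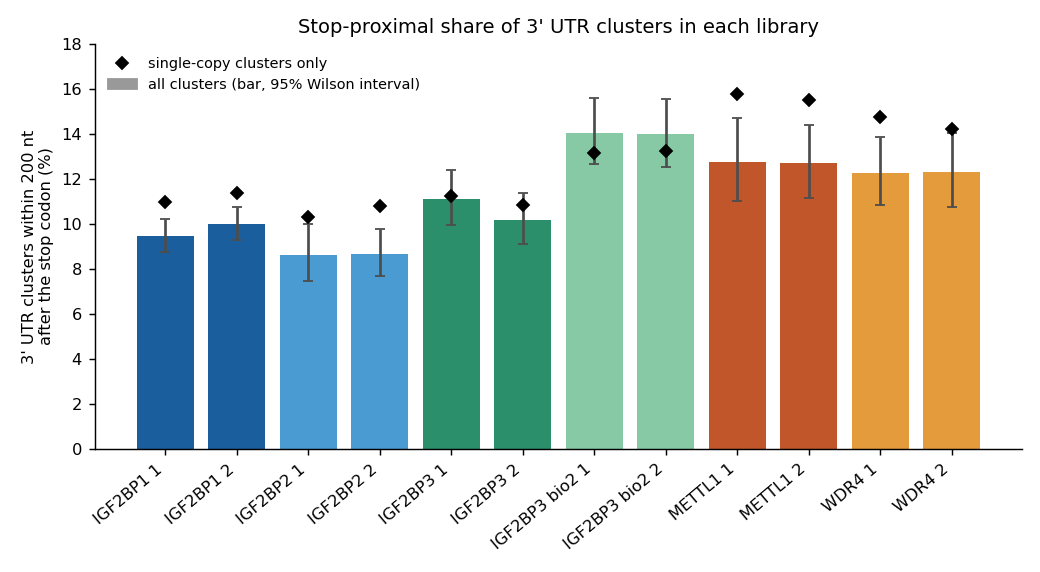
Percent of canonical 3' UTR clusters that lay within 200 nt after the stop codon (y axis) in each of the 12 libraries (x axis), as bars with 95% Wilson intervals that cover counting error only. Diamonds give the share among clusters with a single-copy centre, where the 4 METTL1 and WDR4 libraries, from 14.2% to 15.8%, lie above all 8 IGF2BP libraries.

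The stop codon itself was a sharp border. In transcripts with a 3' UTR of at least 600 nt, the last 200 nt of coding sequence held 0.0113 to 0.0752 clusters per kb, and the first 200 nt of 3' UTR held 0.0519 to 0.222. The mean log2 ratio was 1.71, above 0 in 12 of 12 libraries (exact two-sided sign-flip permutation test, p = 4.88e-04, the smallest possible, adjusted p = 0.00114). The smallest steps were those of the bio2 libraries, 1.14 and 1.19, and the largest that of IGF2BP2 replicate 1, 2.37. The same transcripts enter both terms.

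Past the border no further step was measured over 200 nt. The log2 ratio of the first to the next 200 nt was 0.02 on average (exact sign-flip p = 0.591), with 0.28 and 0.24 in the bio2 libraries and values between -0.16 and 0.11 in the others. Finer bins showed more. The first 100 nt held fewer clusters than the next 100 nt, with a log2 ratio of -0.31 (exact sign-flip p = 9.77e-04). Midpoints in coding sequence of any transcript were left out while all bases were counted, and the effect of this was not tested. In transcripts with a 3' UTR of at least 1200 nt, bio2 replicate 2 alone went the other way. It had 45 and 44 clusters at 1 to 50 and 51 to 100 nt, and 48 and 35 at 101 to 150 and 151 to 200 nt. In the 6 IGF2BP libraries without bio2, density relative to the first 1000 nt of 3' UTR was 0.227 in the last 50 nt of coding sequence, 0.830 at 1 to 50 nt, 0.921 at 51 to 100 nt and 1.295 at 101 to 150 nt. METTL1 and WDR4 libraries gave 0.147, 0.868, 1.23 and 1.26 in the same bins. The bio2 libraries were already at 1.25 in the first 50 nt, and stood at 0.489 just before the stop codon.

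**Figure D3:**
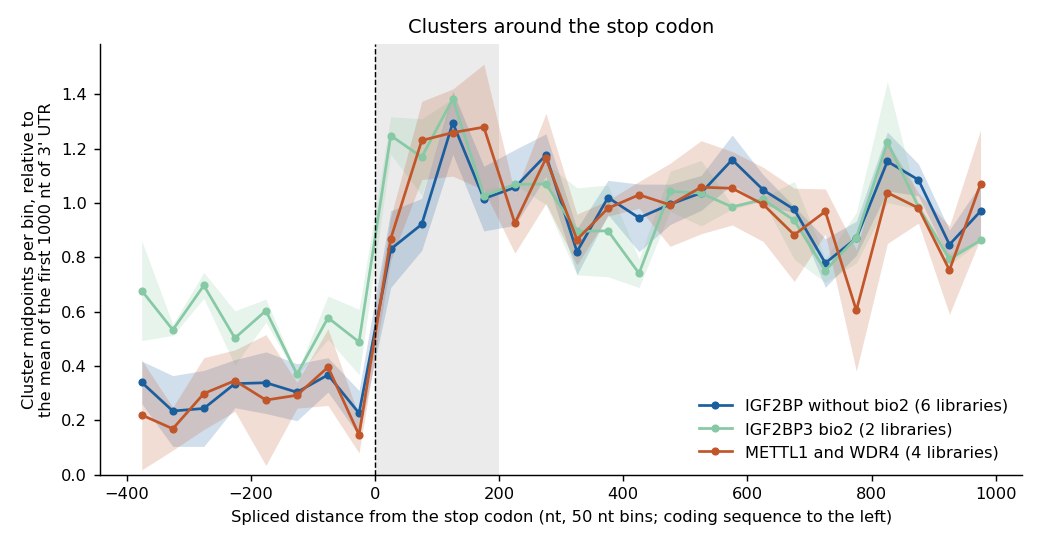
Cluster midpoints per 50 nt bin around the stop codon (x axis, spliced nt), relative to the mean of the first 1000 nt of 3' UTR (y axis), in transcripts with a 3' UTR of at least 1200 nt. Lines are means over libraries and bands 1 SD. Density rises at the stop codon in all 3 sets of libraries, and in the first bin the bio2 libraries (1.25) lie above the other sets (0.830 and 0.868).

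Positions inside the window differed little between the proteins. The median distance from the stop codon was 104 nt ± 7.45 (SD, n = 8) for IGF2BP and 107 nt ± 5.38 (SD, n = 4) for METTL1 and WDR4 (exact permutation p = 0.537). Clusters with some overlap with the coding sequence of the same transcript were 2.45% and 2.69% (exact permutation p = 0.669). The first 50 nt held 23.3% of IGF2BP and 19.8% of METTL1 and WDR4 members (exact permutation p = 0.0485, adjusted p = 0.0970 over 4 bins), a difference that did not pass. Genes with members ended in TGA in 47.1% and TAA in 29.8%, against 47.8% and 29.1% of the 5400 genes that had an eligible window and any exonic cluster.

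Motifs were searched on the transcript strand alone, and GGCA and CGGC can share bases. Sequence around stop-proximal clusters differed from that in the interior of 3' UTRs. GC content of the 61 nt around the midpoint was 49.4% ± 3.71 (SD, n = 12) against 46.3% ± 4.15, higher in 12 of 12 libraries by 3.09 points (exact sign-flip p = 4.88e-04, adjusted p = 0.00114 over 14 comparisons). GGAC, the m6A core, was present in 15.4% ± 3.23 of stop-proximal and 9.81% ± 1.65 of interior windows, again higher in 12 of 12 (difference 5.55 points, same p). It ran from 11.6% in IGF2BP3 replicate 2 to 22.98% in METTL1 replicate 1, so that METTL1 and WDR4, at 17.5% ± 4.86 (SD, n = 4), and IGF2BP, at 14.3% ± 1.59 (SD, n = 8), overlapped (exact permutation p = 0.111). Inside the clusters as deposited GGAC was rare in both places, 4.49% and 4.64%, and the difference was -0.156 points (exact sign-flip p = 0.580). On both sides of the midpoint the share was higher, with GGAC in 7.46% of the 30 nt before and 7.70% of the 30 nt after it, against 4.82% and 5.09% in the interior.

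The regions themselves differed in the same way. Of all 61 nt tiles of the first 200 nt of the genes with members, 19.7% held GGAC and GC was 49.1%, while interior tiles of the same genes gave 13.2% and 43.2%. AUUUA, the core of AU-rich decay elements, was in 6.42% of stop-proximal and 8.94% of interior windows (difference -2.52 points, exact sign-flip p = 0.00244, adjusted p = 0.00427, lower in 11 of 12 libraries), and in 8.04% and 10.9% of the tiles. In a window of 100 nt after the stop codon the AUUUA difference was -1.03 points and did not pass (exact sign-flip p = 0.381). ACUAA, a part of the binding motif of STAR proteins such as QKI, was in 3.84% and 5.63% (difference -1.79 points, lower in 12 of 12, exact sign-flip adjusted p = 0.00114). UUUUU did not differ past the threshold (14.1% and 14.7%, exact sign-flip p = 0.264).

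The IGF2BP core motif CAUA, CAUC or CAUU separated the proteins but not the regions. Among stop-proximal windows it was present in 63.0% and 62.8% for IGF2BP1, 61.7% and 56.6% for IGF2BP2, 70.5% and 68.8% for IGF2BP3 and 75.1% and 78.0% for bio2. METTL1 gave 50.9% and 50.5%, and WDR4 49.3% and 58.5%, so that only WDR4 replicate 2 reached above the lowest reader. The means of 67.1% ± 7.29 (SD, n = 8) and 52.3% ± 4.19 (SD, n = 4) differed by 14.7 points (exact permutation p = 0.00606, adjusted p = 0.0242), and by 11.6 points without bio2 (exact permutation p = 0.0143). Tiles of the first 200 nt held the motif in 50.0%, near the METTL1 and WDR4 level. Against interior windows the mean difference was 2.58 points (exact sign-flip p = 0.133), positive in 8 of 12 libraries and negative in all 4 of IGF2BP3. Among single-copy centres this mean was -1.71 points. Over all clusters the difference was 0.647 points in IGF2BP and 6.44 points in METTL1 and WDR4 libraries (exact permutation p = 0.0869, adjusted p = 0.328). The gap between the proteins was therefore present in the interior too, where it was wider in the means.

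2 rare motifs differed between the regions in all 12 libraries. CUACCUC, the match to the let-7 seed, was in 0.268% of stop-proximal and 1.38% of interior windows (difference -1.11 points, exact sign-flip p = 4.88e-04, adjusted p = 0.00114). let-7 is a microRNA family that represses growth-promoting mRNAs. The mature let-7a of RefSeq (GRCh38.p14, MIRLET7A1, chr9:94175962-94175983, plus strand) is shown with its seed, bases 2 to 8, in capitals.
hsa-let-7a-5p: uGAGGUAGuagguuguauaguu
Only 13 stop-proximal clusters held the match, in 6 genes led by BZW1 with 6, and the METTL1, WDR4 and IGF2BP2 libraries held 0. With a window of 300 nt the difference was -0.452 points (exact sign-flip p = 0.0317). The interior had 376 in 106 genes, among them HMGA2, a known let-7 target, with 15. MTDH and ZCCHC3 each gave 12 interior clusters from 12 libraries. Sites thus recurred across libraries, and the libraries are not independent draws of sites for this test. Tiles held the match in 0.477% of the first 200 nt and 0.411% of the interior of the same genes, so that the regions alone did not differ in this direction.

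UGUANAUA, the element bound by PUM proteins, showed the reverse, with 1.42% of stop-proximal and 0.447% of interior windows (difference 0.977 points, higher in 12 of 12, exact sign-flip p = 4.88e-04, adjusted p = 0.00114). Tiles gave 0.851% and 1.18%. Inside the clusters as deposited the difference was 0.237 points (exact sign-flip p = 0.0449). The count was small, 49 clusters in 13 genes, and the same sites recurred across libraries, so the libraries are not independent draws of sites. HNMT, which inactivates histamine, gave 10 of them from 10 libraries at 71 nt. The CDK inhibitor gene CDKN1A gave 7, and CCDC82 and IGFBP1, a secreted IGF carrier, 5 each. Each library held 2 to 9 of these clusters.

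Repeats were less frequent after the stop codon. Clusters whose centre occurs over 20 times in the genome were 5.17% ± 2.92 (SD, n = 12) of stop-proximal and 17.1% ± 8.91 of interior clusters, lower in 12 of 12 libraries (difference -11.9 points, exact sign-flip p = 4.88e-04). In the bio2 libraries both shares were small, 0.971% and 1.05% against 1.28% and 1.51%. Single-copy centres were more frequent after the stop codon in 10 of 12 libraries. Both bio2 libraries went the other way, with 78.3% and 78.7% against 85.4% and 84.5% in the interior. GGCA moved with the clusters of over 20 copies: it was in 13.02% of stop-proximal and 16.7% of interior windows (difference -3.67 points, exact sign-flip adjusted p = 0.00293), but among single-copy clusters the difference was -0.326 points (exact sign-flip p = 0.618). CGGC was in 7.73% and 6.45% (difference 1.27 points, exact sign-flip adjusted p = 0.00987) and differed by 2.92 points among single-copy clusters. Among these, GC differed by 4.18 points, GGAC by 6.36, CUACCUC by -1.31 and UGUANAUA by 1.25, all with the smallest possible p of 4.88e-04 in the exact sign-flip test.

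IGF2BP clusters just after the stop codon coincided more often with METTL1 or WDR4 clusters than those in the interior. The share that overlapped by at least 1 nt was 44.2% and 39.6% against 33.4% and 31.6% in the IGF2BP1 libraries, and 73.5% and 61.5% against 62.2% and 51.9% in those of IGF2BP2. IGF2BP3 gave 54.4% and 56.5% against 43.8% and 44.5%. The bio2 libraries gave 27.8% and 25.2% against 24.0% and 24.6%. The mean difference was 8.32 points, positive in 8 of 8 libraries (exact sign-flip p = 0.00781, the smallest possible, adjusted p = 0.0109), and 10.4 points without bio2. All 8 libraries were set against the same METTL1 and WDR4 clusters. Overlap was also taken between single libraries, as the share of the clusters of both. Pairs of an IGF2BP with a METTL1 or WDR4 library gave a mean of 30.9% against 26.6% in the interior. Pairs of different IGF2BP proteins were also higher after the stop codon, at 45.0% against 42.0%, and METTL1 with WDR4 gave 35.3% against 34.1%. These pair values were not tested. Clusters found again in the other library of the same group were 62.8% and 61.1% (difference 1.76 points, exact sign-flip p = 0.0469, adjusted p = 0.0597), which did not pass after adjustment.

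**Figure D4:**
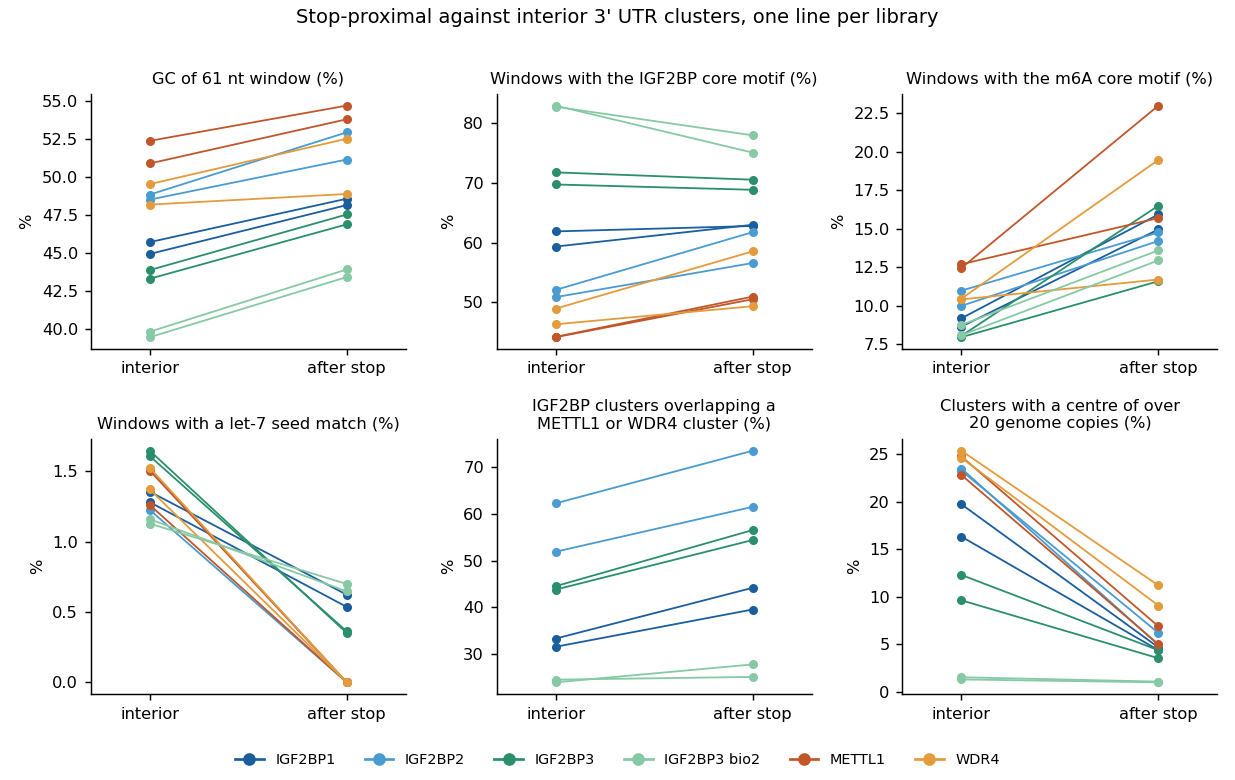
Values of each library (points joined by a line, coloured by group) in the interior of 3' UTRs and after the stop codon, all y axes in percent. The panels give GC, the IGF2BP core motif (CAUA, CAUC or CAUU), the m6A core motif (GGAC), the let-7 seed match (CUACCUC), overlap of IGF2BP clusters with METTL1 or WDR4 clusters, and clusters with a centre of over 20 genome copies. GC and GGAC rise and repeats fall in all 12 lines, while the IGF2BP core motif falls in the 4 lines of IGF2BP3 and rises in the others.

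Genes with members had shorter 3' UTRs than genes contacted in the interior alone, with a median of 1583 nt in 979 genes against 2828 nt in 2911 genes. A longer 3' UTR has more interior sequence, so this is given as a description. Of the genes with members, 57.4% also had interior clusters in some library. APEX1, KHDRBS1, ITM2B and PEBP1 had 0 interior clusters, whereas BCL2L1 had 31.

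Against this background, a stop-proximal cluster in any library was present in 979 of the 5400 genes with an eligible window and an exonic cluster, or 18.1%. Hepatocyte marker genes stood at 5 of 7 (71.4%), secreted plasma protein genes, which share members with them, at 12 of 19 (63.2%) and cholesterol and fatty acid genes at 10 of 28 (35.7%). ALB had such clusters in 9 libraries and APOB in 4. The desaturase gene FADS2 had them in 10, none of them bio2. ACSL3, an acyl-CoA synthetase, had its cluster at 102 to 104 nt in 9 libraries. RAB GTPase genes gave 8 of 22 (36.4%), with RAB9A in 9 libraries and RAB10 in 8 beside RAB7A. RAB5C, which had the most separate sites of any gene, had 4 in 5 libraries. Splicing factor genes gave 7 of 19 (36.8%) and amino acid transporter genes 5 of 15 (33.3%). Near the background lay the cell cycle genes, 6 of 25 (24.0%), with CDK4 in 9 libraries at 186 or 187 nt and PLK1 in 8. So did insulin and IGF signalling (6 of 25), deubiquitinases and ubiquitin ligases (6 of 29) and chromatin regulators (6 of 31), of which ARID1A, a SWI/SNF subunit, was found in 11 libraries. Translation factor genes gave 4 of 20, with EEF2 in 9 libraries, and cytosolic ribosomal protein genes 2 of 11. Lower shares were those of chaperones, 3 of 21, where the lectin CALR was found in 10 libraries, and of microRNA and RNA decay factors, 4 of 30, where ZFP36L1, a factor that binds AU-rich elements, was found in 10. Among m6A and m7G factors 3 of 15 had members, with YTHDF3, an m6A reader, in 7 of 8 IGF2BP libraries and in no METTL1 or WDR4 library. A gene expressed at a higher level can give more clusters, and RNA levels were not used here.

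**Figure D5:**
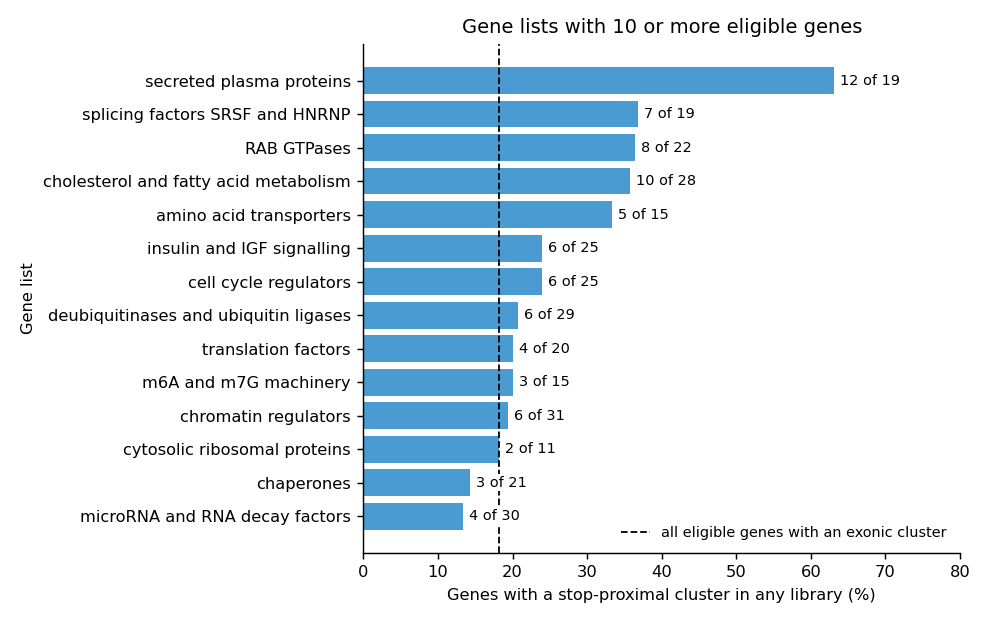
Percent of the genes of each list of 10 or more eligible genes (rows) that had a stop-proximal cluster in any library (x axis), out of those with an eligible window and an exonic cluster. Numbers beside the bars give the counts, and the dashed line the share over all such genes (18.1%). Among these lists secreted plasma protein genes stand highest, at 12 of 19.

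Of 5 known targets of the family, 3 had an eligible window and an exonic cluster, and 2 of these (66.7%) had stop-proximal clusters. IGF2, the fetal growth factor, had 1 stop-proximal site, found in 11 libraries and absent from bio2 replicate 1, with a median width of 119 nt and a midpoint at 135 nt, and it had 258 interior clusters. IGF2BP1 mRNA itself had 14 clusters at 2 sites in 8 libraries, none of them bio2. MYC had 1 cluster, at 194 nt in IGF2BP1 replicate 2. No stop-proximal cluster was found for ACTB or CD44, of which 1 had an eligible window and an exonic cluster and the other had no exonic cluster. H19 encodes no protein and has no stop codon. Of the endogenous transcripts to which the study directed dCas13b fusions of IGF2BP3 or METTL1 with guide RNAs, NDRG1 had 2 clusters, both in IGF2BP1 replicate 1, and CYRIB, BPNT2, ZDHHC9 and HUWE1 had 0. Genes with several sites included NRBP1, RNASE4 and PTMS with 3 each, of which the NRBP1 site at 169 nt was found in 11 libraries and the RNASE4 site at 126 nt in 11.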

How the data were processed

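PAR-CLIP was done on HepG2 cells with antibodies to IGF2BP1, IGF2BP2, IGF2BP3, METTL1 and WDR4. By the methods, the authors clipped and collapsed reads with the FASTX toolkit, mapped them with Bowtie and called clusters per library with PARalyzer, and the labels name hg38. Versions are not given in the sources used here. What was deposited per cluster is its start and end, other than any count or score, so all clusters weigh equally, and reads with many equally good places were dropped before calling.

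Clusters were placed on GENCODE 44 canonical transcripts by their midpoint with python 3.11.15, pandas 2.3.3 and pysam 0.24.0, and the placement was tested on simulated data (1952 of 1952 midpoints placed at their known distance). Motifs were counted in 61 nt around the midpoint, and exact copies of the central 20 nt were counted in hg38. IGF2BP libraries (readers) were compared with METTL1 and WDR4 libraries (writers) by exact two-sided permutation of libraries, and stop-proximal with interior clusters of the same library by exact two-sided sign flips, with Benjamini-Hochberg adjustment within families of 8 and 14 and a threshold of 0.05. Replicate numbers did not pair libraries (15 correlations from -0.0209 to 0.0187).

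The members and gene lists were chosen with earlier results of these data known. Named genes were those with clusters in the most libraries, in readers or writers alone, in 1 protein alone, with the most sites, the leading members of each list, and a set of known and tethered targets. USP3, TNFRSF21 and the genes holding rare motifs were named after their values were seen. Some genes of the rule are not reported here. Alternatives covered the window, the overlap, repeats, cluster width, the protein as unit and each library left out.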

Additional observations from a re-analysis of the deposited data

Results flagged for a closer look

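In 2 of 62 groups checked, 1 library lay far from the others, where chance flags about 1 in 20 groups. The difference in CGGC between stop-proximal and interior windows was 3.12 points in IGF2BP2 replicate 2, the highest of the 8 IGF2BP libraries. For the PUM element UGUANAUA it was 0.372 points in IGF2BP3 replicate 1, the lowest of the 8. The IGF2BP core motif (CAUA, CAUC or CAUU) moved in opposite directions: it was lower after the stop codon than in the interior in all 4 IGF2BP3 libraries, by a mean difference of -3.69 points, and higher in all 8 libraries of the other proteins. Most of this mean came from the bio2 libraries, at -7.87 and -4.79 points. The IGF2BP3 libraries without that label gave -1.23 and -0.89 points, and IGF2BP1 replicate 2 gave 0.91 points. This difference between proteins was not tested. Among single-copy centres the mean difference over all libraries was -1.71 points, so the direction of the mean depended on the repeated sequences.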

How the results depend on the processing

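Of the alternatives, 397 values kept their direction and side of the threshold, 40 lost and 21 gained the call, and 17 changed sign. All p are from exact tests, and differences are in percentage points unless named. Reader against writer, the share of 3' UTR clusters was -2.84 without bio2, -3.57 for single-copy centres and -4.14 for both changes, the last chosen after seeing the data. The median distance was 0.333 nt, 2.75 nt and 5.17 nt under these, -6.94 nt in a 100 nt window and -8.25 nt with any overlap. Overlap with coding sequence was 1.36 in wide clusters and -0.601 to 0.338 leaving out 1 library, positive without METTL1 replicate 2. GC was -3.27 without bio2, -3.70 with single-copy centres too, -3.87 in wide clusters and -5.86 to -3.92 leaving out 1 library. GGAC was -4.99 for single-copy centres, -6.94 in 100 nt, -2.95 in 300 nt, -2.48 inside clusters and -5.07 to -1.31 leaving out 1 library, passing without WDR4 replicate 2 (exact p = 0.0182). The log2 ratio of first to next 200 nt was -0.12 without bio2, -0.16 with single-copy centres too and 0.08 in 100 nt.

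Stop-proximal minus interior, the IGF2BP core motif was 4.36 without bio2, -1.71 for single-copy centres, -0.894 for both, 8.12 in wide clusters, 5.60 in 100 nt and 1.93 to 3.53 leaving out 1 library, passing without bio2 replicate 1. GGAC was 2.14 in wide clusters and -0.156 inside clusters. Clusters found again were 1.51 without bio2, 0.191 for single-copy centres, -0.575 for both, 0.171 in 100 nt and 1.42 to 2.02 leaving out 1 library. In wide clusters CGGC was -0.854 and UUUUU 2.93, and UUUUU was 0.626 with any overlap. The log2 ratio of first to next 200 nt was -0.0251 without bio2, -0.0682 in wide clusters, -0.31 in 100 nt, 0.10 in 300 nt and -0.001227 to 0.0389 leaving out 1 library, negative without bio2 replicate 1. The cause of these changes was not tested.

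With the protein as the unit, too few units remain to pass for most results: the share of all clusters was 1.78, GC -3.86 and the core motif 12.7 reader against writer, and GC 2.94, GGAC 5.57, clusters found again 1.76, overlap with METTL1 or WDR4 8.85 and the log2 step at the stop codon 1.80. With a replicate block no call changed (core motif 14.7, exact p = 0.0133). Clusters carry no read counts, so depth limits every count of genes and sites, and absence from a library is not absence of binding. No input library was used, so RNA level and contact cannot be told apart.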
